A study of Mus musculus with 32 samples.

Results

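The 10 genes described here are epithelial and mesenchymal genes that are commonly followed in epithelial-mesenchymal transition, with the cadherins left out. They were chosen by name (Epcam, Esrp1, Cldn4, Cldn7, Vim, Fn1, Snai1, Snai2, Zeb1 and Zeb2) and were all found among the 31053 genes counted. The 32 libraries, in 8 groups of 4 biological replicates each, were made from C1, a line of mouse embryonic stem cells (ESCs). C1 cells carry a β-catenin knockout and an integrated construct for a constitutively active β-catenin fused to mCherry and to a destabilizing domain. Doxycycline (dox) starts transcription of the fusion and trimethoprim (TMP) stabilizes the protein. All groups therefore lack endogenous β-catenin and carry the construct, and all come from 1 modified line.

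Of the pluripotent cultures, collected at day 0, C1 received TMP alone, whereas C1M and C1H received dox and TMP and were sorted on mCherry into a fraction with moderate and a fraction with high exogenous β-catenin. The other 5 groups were collected at day 4 of monolayer differentiation in NDiff227, a serum-free medium without the factors that hold ESCs in pluripotency. C1T was differentiated from C1 with TMP alone. C1MV and C1HV came from the moderate and the high fraction after withdrawal of both inducers, and C1MDT and C1HDT came from the same fractions with dox and TMP kept in the medium. Neither C1 nor C1T received dox, and C1 was sorted only for living cells. Dox, sorting on mCherry and the exogenous protein therefore cannot be told apart in comparisons with these groups. C1MV and C1HV were differentiated in DMSO without TMP, so they also differ from C1T in TMP. Between kept and withdrawn inducers, dox, TMP and the protein differ together. The deposited labels describe growth in serum with LIF, whereas the study's methods describe 2i with LIF for these libraries.

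In an epithelial-mesenchymal transition, cells lose junctions and polarity and gain motility and a fibronectin-rich matrix. Snai1, Snai2, Zeb1 and Zeb2 encode transcription factors that bind E-box sequences and repress epithelial genes, and Esrp1 encodes an RNA-binding protein that directs epithelial splicing. Mouse ESCs are themselves epithelial-like cells that express E-cadherin, and the transition is best known in the embryo from gastrulation and neural crest migration.

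The E-box CACCTG is shown because it is the motif that SNAI and ZEB proteins are known to bind in epithelial genes. RefSeq windows (assembly GRCm38.p6) were matched for 6 of the 10 genes (Epcam, Cldn4, Cldn7, Vim, Snai1 and Zeb2). The 250 bases before the start of transcription are printed 5′ to 3′ on the strand of the gene for Epcam and Cldn4, whose RNA moved in opposite directions in these cultures, and for Snai1, which encodes a factor that binds the motif. Capitals mark CACCTG or its reverse complement CAGGTG.
Epcam, chr17:87635729-87635978, plus strand: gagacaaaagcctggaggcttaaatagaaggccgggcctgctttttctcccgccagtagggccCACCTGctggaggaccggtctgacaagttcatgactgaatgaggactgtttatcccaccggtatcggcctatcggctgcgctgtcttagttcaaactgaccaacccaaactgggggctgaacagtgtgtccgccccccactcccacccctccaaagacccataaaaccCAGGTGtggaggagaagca
Cldn4, chr5:134946935-134947184, minus strand: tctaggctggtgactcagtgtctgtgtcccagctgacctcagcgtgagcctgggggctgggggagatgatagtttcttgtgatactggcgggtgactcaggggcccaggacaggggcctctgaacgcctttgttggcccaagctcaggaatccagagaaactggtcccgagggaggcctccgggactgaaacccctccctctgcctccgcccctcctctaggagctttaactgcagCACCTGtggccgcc
Snai1, chr2:167537945-167538194, plus strand: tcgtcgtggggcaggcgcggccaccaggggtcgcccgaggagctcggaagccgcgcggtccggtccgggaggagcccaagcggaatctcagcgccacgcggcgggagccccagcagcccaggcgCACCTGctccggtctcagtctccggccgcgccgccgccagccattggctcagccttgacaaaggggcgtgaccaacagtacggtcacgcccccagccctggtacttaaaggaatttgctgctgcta
The Epcam window holds the E-box at 187 and, on the other strand, at 19 bases before the start. The motif lies 14 bases before the start of Cldn4 and 126 bases before that of Snai1. Of 2 Cldn7 windows, the one that begins at position 69965171 of chromosome 11 held 2 matches and the other none, and no match lay in the windows of Vim or Zeb2. The Cldn7 window with matches lies inside the annotated gene, which starts at 69964779, and 221 of its 250 bases are annotated exon. All 250 bases of the Vim window are annotated exon, so it does not show the bases before that gene. Of all 32817 windows, 17.2% held the E-box on either strand. The letters CTTTGAT on either strand, a motif of the TCF/LEF factors that β-catenin binds, were in 3.21% of all windows and in none of the windows of these genes. A match is a description of letters and not of binding.

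Expression is given as CPM, the counts of a gene relative to the total on genes of its library, scaled with TMM factors, as mean ± SD of the 4 libraries of a group. The libraries held between 1366951 and 3648787 reads on genes, so that 3 counts, taken here as the floor, stood for 0.822 to 2.19 CPM. All 10 genes passed the filter of at least 1 CPM in at least 4 libraries, together with 15280 genes in all. Epcam, Cldn4, Cldn7, Vim, Fn1, Zeb1 and Zeb2 reached 1 CPM in each of the 32 libraries, Snai1 in 29, Snai2 in 24 and Esrp1 in 23. A gene was called when its adjusted p from the quasi-likelihood test of edgeR was under 0.05. Ctnnb1, which encodes β-catenin, was at 7.82 ± 2.63 CPM in C1, 12.3 ± 3.84 in C1M and 41.2 ± 5.70 in C1H. Only C1H passed the test against C1 (adjusted p = 6.48e-20, against 0.0553 for C1M). The study states that the knockout removed the whole coding sequence of β-catenin. The sources do not say whether the 3′ reads of the kit cover the knocked-out part or the end of the construct. The pluripotency markers summed to between 5007 and 6785 CPM in the libraries of day 0 and to between 626 and 1658 CPM at day 4, and the fibroblast markers lay between 8.38 and 27.1 CPM throughout.

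**Figure D1:**
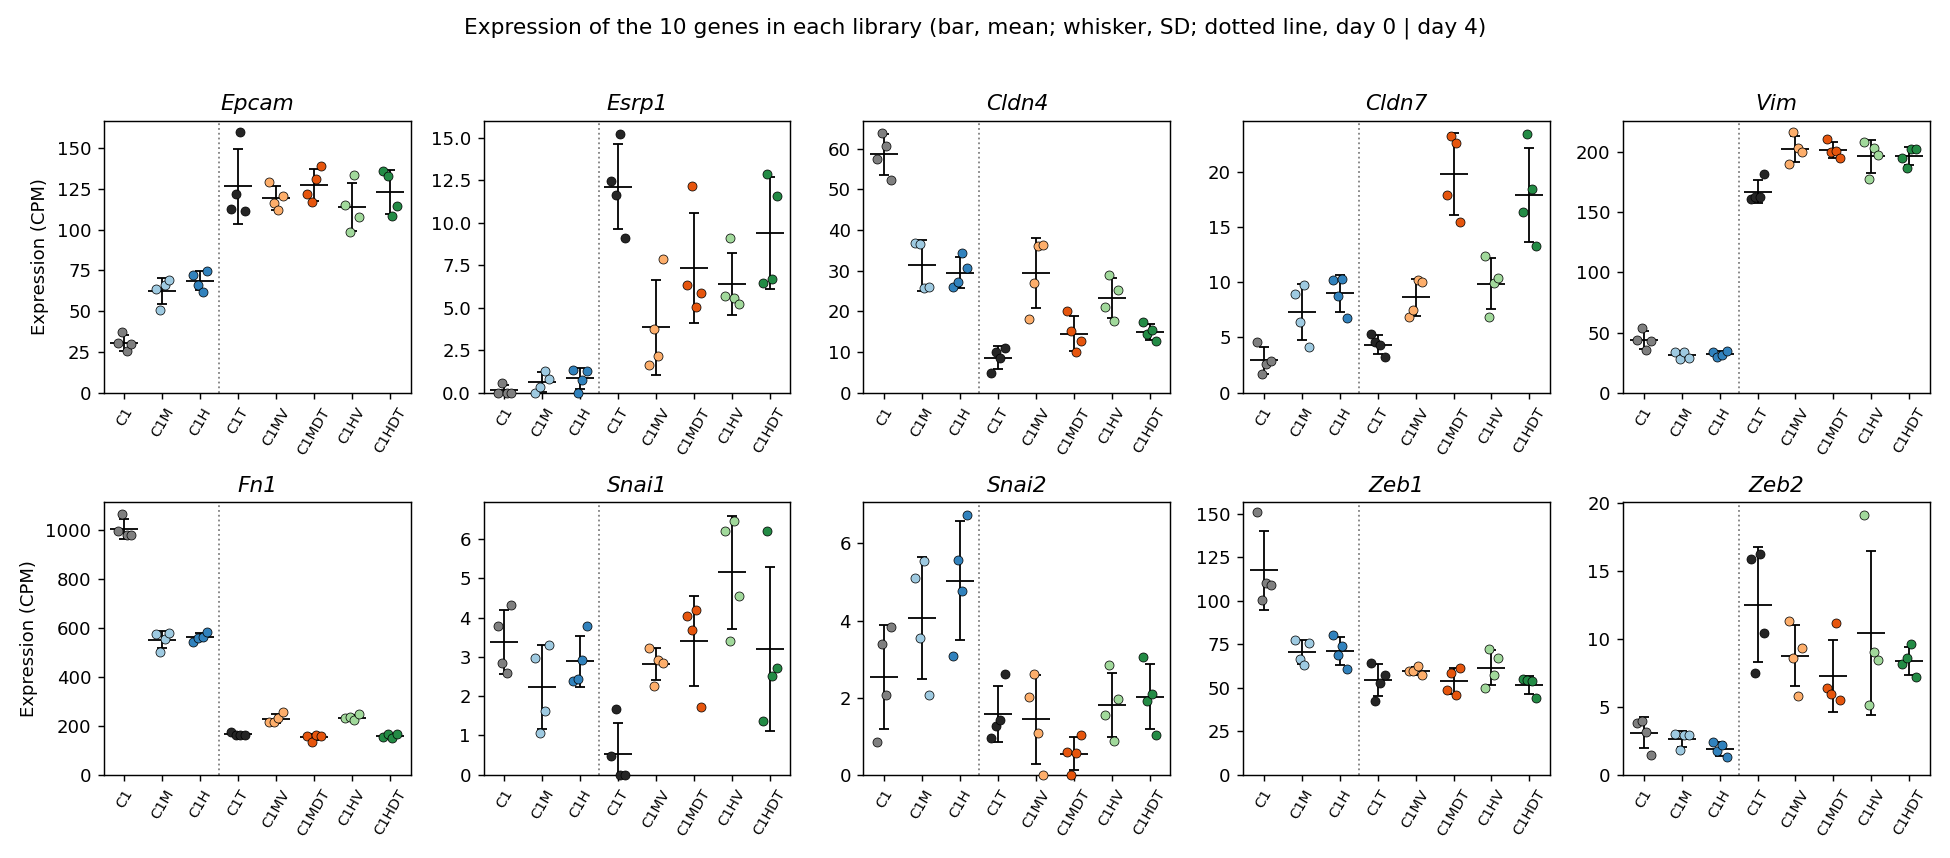
Expression in CPM (y axis, from 0, with its own scale for each gene) of the 10 genes in the 8 groups (x axis). Points are libraries, horizontal bars the mean and whiskers the SD (n = 4), and the dotted line separates day 0 from day 4. Epcam and Vim were higher at day 4 than at day 0 in every library, and Fn1 was lower.

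The first question was how these genes differed between the induced fractions and C1 while the cells were still pluripotent. In C1M vs C1, 2 of the 10 genes rose and 4 fell, where 26.3% of all tested genes were called (14.3% higher and 12% lower), and the libraries of the groups did not overlap for 5 of them (25.4% of all genes). In C1H vs C1 the counts were also 2 and 4 (background 25.9%, with 13.8% higher and 12.1% lower). The epithelial genes were divided, since Epcam and Cldn7 rose and Cldn4 fell. The mesenchymal genes that were called, Vim, Fn1 and Zeb1, all fell. Both comparisons share the C1 libraries. The pluripotency markers moved with them, at a summed 6501 to 6785 CPM in C1, 5007 to 5250 in C1M and 5054 to 5366 in C1H. Of the 10 markers 6 fell and 1 rose in C1M vs C1, and 5 fell and 0 rose in C1H vs C1. The libraries of C1 held 14638 to 15021 genes with a count, those of C1M 15733 to 16187 and those of C1H 15919 to 16282, and the share of reads aligned to more than 1 place was 49.4% to 51.3% in C1, 53.1% to 54.1% in C1M and 50.7% to 51.3% in C1H. The part of these markers and library measures in the changes of the 10 genes was not tested.

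Epcam, which encodes an epithelial adhesion molecule, was at 30.2, 37.4, 25.4 and 29.7 CPM in the libraries of C1. It was at 63.7, 50.7, 65.9 and 68.9 CPM in C1M and at 72.2, 66.3, 61.6 and 74.4 CPM in C1H. All induced libraries thus lay above all C1 libraries, and the log2 fold change was 1.02 ± 0.13 (SE) in C1M (adjusted p = 4.02e-11) and 1.16 ± 0.13 in C1H (adjusted p = 5.20e-14). Cldn7, a tight junction claudin, was counted at 4.62, 1.70, 2.60 and 2.88 CPM in C1 and at 8.92, 6.39, 9.78 and 4.13 CPM in C1M. The lowest C1M library lay below the highest C1 library, and the rise of 1.26 ± 0.35 on the log2 scale passed the test (adjusted p = 0.00276). In C1H, Cldn7 was at 8.98 ± 1.67 CPM with no overlap with C1, a rise of 1.55 ± 0.33 (adjusted p = 9.07e-05).

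Cldn4, the other claudin, went the opposite way. It was at 57.5, 63.98, 60.7 and 52.3 CPM in C1, at 36.9, 36.5, 25.8 and 26 CPM in C1M and at 25.9, 27.2, 34.4 and 30.7 CPM in C1H. The groups did not overlap, and Cldn4 was 1.87-fold lower in C1M (adjusted p = 7.70e-07) and 1.98-fold lower in C1H (adjusted p = 7.74e-08). Fn1, which encodes fibronectin, was at 995.6, 1066, 980.5 and 978.5 CPM in C1 and between 499.8 and 583.5 CPM in the 8 induced libraries. No library overlapped, and Fn1 was 1.82-fold lower in C1M (adjusted p = 5.93e-23) and 1.79-fold lower in C1H (adjusted p = 2.92e-22). Zeb1 fell from 117.5 ± 22.8 CPM to 70.7 ± 6.96 in C1M (adjusted p = 1.19e-08) and 71.1 ± 8.21 in C1H (adjusted p = 2.20e-08). Vim, which encodes the intermediate filament protein vimentin, was at 44.1 ± 7.38 CPM in C1, 31.1 ± 3.49 in C1M and 32.3 ± 2.42 in C1H, and the log2 fold changes of -0.50 and -0.44 passed the test (adjusted p = 0.000804 and 0.00286).

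The remaining genes were near the floor at day 0 and did not pass the test. Esrp1 had 1 count over the 4 libraries of C1, 7 over those of C1M and 9 over those of C1H, so that the ratio of C1H to C1 was 6.73 with a 95% counting interval of 0.933 to 295. Snai1 lay between 1.06 and 4.32 CPM in the 12 libraries of day 0, Snai2 between 0.839 and 6.73 CPM and Zeb2 between 1.26 and 3.96 CPM. Between the fractions, 0 of the 10 genes were called in C1H vs C1M by edgeR or by DESeq2, none had an unadjusted p under 0.05, and 1.77% of all genes were called. In the same comparison Ctnnb1 was 3.39-fold higher in C1H (adjusted p = 1.56e-13). The lowest adjusted p of the 10 genes was 0.661, and the 95% intervals of their log2 fold changes had half-widths of up to 1.49.

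Next, differentiation without induction was considered. In C1T vs C1, 4 of the 10 genes rose (Epcam, Esrp1, Vim and Zeb2) and 4 fell (Cldn4, Fn1, Snai1 and Zeb1), and the groups did not overlap for any of these 8. Of all tested genes 49.3% were called (24.4% higher and 24.9% lower), and 42.4% did not overlap. The genes that rose joined epithelial and mesenchymal members, and so did those that fell. Of the 10 pluripotency markers 8 fell in the same comparison. Of the 8 neural ectoderm markers 4 rose and 1 fell, with a median log2 fold change of 1.88, and their summed level was 313 to 390 CPM in C1 and 582 to 617 CPM in C1T. Pax6, a neural transcription factor, was at 0.576 ± 0.519 CPM in C1 and 24.0 ± 5.47 in C1T, and Tubb3, a neuronal tubulin, at 11.0 ± 1.73 and 66.9 ± 6.07. The share of reads outside annotated genes was 9.03% to 11.2% in the libraries of day 0 and 4.72% to 6.83% in those of day 4, so that it moved with every comparison of the days. The part of these cell types and of that share in the changes of the 10 genes was not tested, and in bulk samples fewer cells of a type and less RNA per cell cannot be told apart.

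Vim was at 161.2, 162.8, 163.0 and 181.5 CPM in C1T, a rise of 3.79-fold (adjusted p = 4.43e-39), and Epcam was at 112.8, 121.6, 160.2 and 111.6 CPM, a rise of 4.15-fold (adjusted p = 3.46e-34). The lowest C1T library was above the highest C1 library for both genes. Esrp1 was at 12.5, 11.7, 15.3 and 9.14 CPM in C1T, which is 100 counts against 1 in C1, a ratio of 101 with a 95% counting interval of 17.6 to 4012 (adjusted p of the fit = 4.15e-15). Zeb2 rose from 3.07 ± 1.15 to 12.5 ± 4.25 CPM (adjusted p = 3.96e-07).

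Fn1 was at 172.8, 163.2, 162.1 and 162.6 CPM in C1T, 6.08-fold lower than in C1 (adjusted p = 6.90e-70). Cldn4 was at 4.80, 9.99, 8.58 and 11.1 CPM, 6.83-fold lower (adjusted p = 4.63e-26), and all 4 libraries lay far below those of C1. Zeb1 fell by 1.13 ± 0.12 on the log2 scale to 54.3 ± 9.16 CPM (adjusted p = 8.07e-16), opposite in direction to its paralog Zeb2. Snai1 had 1, 4, 0 and 0 counts in C1T, against 9, 5, 5 and 9 in C1 (log2 fold change of -2.39 ± 0.66, adjusted p = 0.00118). Without C1T replicate 2, which held 4 of the 5 counts, the log2 fold change was -3.93. Cldn7 (4.35 ± 0.836 CPM) and Snai2 (1.56 ± 0.726 CPM) did not pass the test.

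Cells that had been induced before differentiation were then compared with their own day 0 fraction. With the inducers withdrawn, 4 genes rose and 2 fell in C1MV vs C1M (background 45.9%, with 22% higher and 23.9% lower) and likewise in C1HV vs C1H (47%, with 22% higher and 25.1% lower). With the inducers kept, 5 rose and 4 fell in C1MDT vs C1M (52.4%, with 24.5% higher and 27.9% lower) and in C1HDT vs C1H (55.7%, with 26.3% higher and 29.4% lower). Epcam, Esrp1, Vim and Zeb2 rose and Fn1 and Snai2 fell in all 4 comparisons, and Cldn7 rose and Cldn4 and Zeb1 fell in addition where dox and TMP were kept. The endoderm markers moved with these changes, since 14 of 14 tested rose in C1MV vs C1M and in C1HV vs C1H, and 12 of 14 in C1MDT vs C1M and in C1HDT vs C1H. In each of the tests of a difference of response from C1T vs C1, given next, 11 of the 14 were called, all of them higher. Their part in the changes of the 10 genes was not tested. The call for Snai2 rests on few counts. It was lost in C1MV vs C1M without C1M replicate 1 (adjusted p = 0.0618) or replicate 3 (0.0993) and without C1MV replicate 3 (0.0787) or replicate 4 (0.0846), in C1HV vs C1H without C1HV replicate 3 (0.0660) and in C1HDT vs C1H without C1HDT replicate 4 (0.0669). In C1MDT, Snai2 had 1, 0, 2 and 3 counts, all at or under the floor.

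The size of these changes was tested against that of C1T vs C1 with an interaction term. In this test the differences were called for 7 genes in C1MV vs C1M (background 22.5%), 6 in C1MDT vs C1M (24.4%), 7 in C1HV vs C1H (21.9%) and 6 in C1HDT vs C1H (25.2%), and the C1 and C1T libraries are shared by all 4. Since the groups also differed at day 0, a difference of response can lie at day 0, at day 4 or at both. Epcam rose less in the cells that had been induced, by 1.02 to 1.31 log2 units, and Vim rose more, by 0.68 to 0.78 log2 units. For Cldn4 the difference was 2.41 and 2.66 log2 units where the inducers had been withdrawn, where Cldn4 itself did not pass the test between the days, and it fell less by 1.60 and 1.80 where they were kept. Fn1 fell less by 1.33 and 1.34 log2 units after withdrawal and by 0.75 and 0.78 under continued induction, and Zeb1 fell less by 0.75 and 0.66 there. For Zeb1 after withdrawal the difference was 0.90 and 0.91, with no call between the days. In C1MDT vs C1M most of the difference lay at day 0 for several genes. For Zeb1 the log2 fold change was -0.75 in C1M vs C1 and -0.0031 in C1MDT vs C1T, for Fn1 -0.86 and -0.11, for Epcam 1.02 and 0.0061, and for Vim -0.50 and 0.27. The difference for Snai1 was 2.48 to 3.25 log2 units, with 5 counts in C1T, and 4.055 to 4.84 without C1T replicate 2. In C1HDT vs C1H its call was lost without C1T replicate 3 (adjusted p = 0.0520) or C1HDT replicate 2 (0.0696).
For Esrp1 the difference was called in both withdrawn groups, and it was computed against a single count in C1. Without C1 replicate 2, C1 held no count of Esrp1, so that no difference can be measured. In C1MV vs C1M it was lost without C1M replicate 3 (adjusted p = 0.135). In C1HV vs C1H it was lost without C1 replicate 1 (0.0885), 3 (0.0707) or 4 (0.0749) and without C1H replicate 1 (0.112) or 4 (0.0771). Cldn7, Snai2 and Zeb2 did not pass any of the 4 tests.

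**Figure D2:**
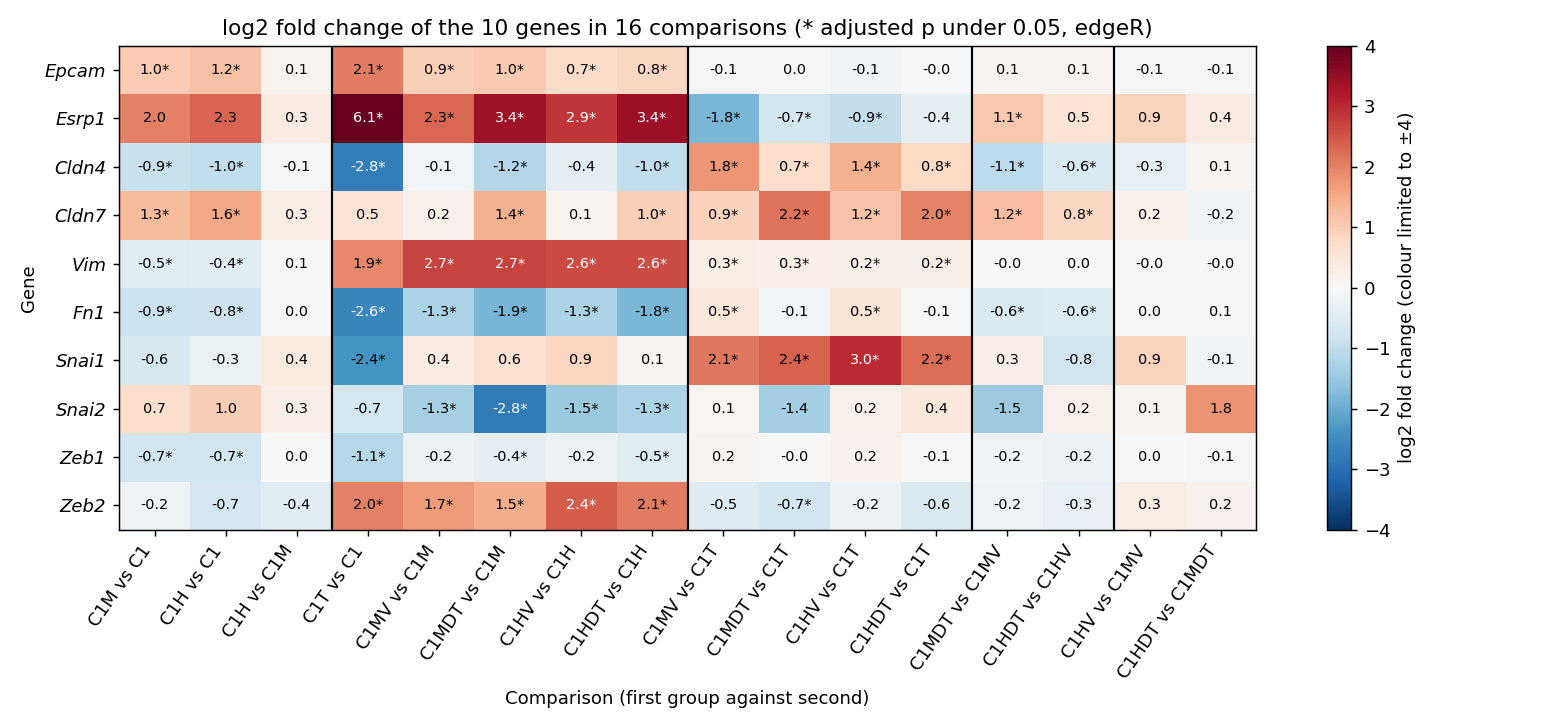
log2 fold change of the 10 genes (rows) in the 16 comparisons of 2 groups (columns, first group against second), with vertical lines between comparisons at day 0, of day 4 with day 0, with C1T, of kept with withdrawn inducers, and of fractions at day 4. An asterisk marks an adjusted p under 0.05. Rows of Epcam and Esrp1 share the direction of Vim and Zeb2 from day 0 to day 4, and the 2 claudins differ. The value of Esrp1 in C1T vs C1 rests on 1 count in C1.

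At day 4, groups with a history of induction were compared with C1T. Cldn4, Cldn7, Vim and Snai1 were higher in all 4 of them, while Epcam, Snai2 and Zeb1 passed the test in none. In C1MV vs C1T, 5 genes were higher and 1 lower (background 30.2%, with 15.3% higher and 14.9% lower), and in C1HV vs C1T also 5 and 1 (28%, with 13.7% and 14.3%). In C1MDT vs C1T, 4 were higher and 2 lower (33.4%, with 16.9% and 16.5%), and in C1HDT vs C1T 4 and 0 (33.5%, with 17.4% and 16.1%). Without C1T replicate 1 the count of called genes went from 6 to 3 in C1MDT and from 4 to 2 in C1HDT, and without C1MDT replicate 1 from 6 to 3 in C1MDT. All 4 comparisons share the C1T libraries.

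Cldn7 was at 5.28, 4.58, 4.29 and 3.26 CPM in C1T. It was at 17.9, 23.2, 22.6 and 15.5 CPM in C1MDT and at 16.3, 23.4, 18.4 and 13.3 CPM in C1HDT, which is 4.47-fold (adjusted p = 1.54e-11) and 3.94-fold (1.06e-09) higher without overlap. In the withdrawn groups it was at 8.63 ± 1.70 CPM in C1MV and 9.88 ± 2.31 in C1HV, between C1T and the groups with inducers (adjusted p = 0.0162 and 0.00264). The call in C1MV was lost without C1MV replicate 3 (adjusted p = 0.0667).

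Cldn4 showed the reverse order among the groups with a history of induction. It was at 18.1, 26.96, 35.98 and 36.4 CPM in C1MV and at 21.2, 28.98, 17.6 and 25.4 CPM in C1HV, against 8.62 ± 2.75 in C1T. The levels were 3.38-fold (adjusted p = 1.48e-11) and 2.68-fold (1.95e-07) higher, and the lowest library of each lay above the highest C1T library. With inducers kept, Cldn4 was at 20.2, 15.1, 10.1 and 12.7 CPM in C1MDT and at 17.4, 14.3, 15.5 and 12.6 CPM in C1HDT. The first of these overlapped with C1T, and the folds were 1.62 (adjusted p = 0.0172) and 1.75 (0.00453). Both calls were lost without C1T replicate 1 (adjusted p = 0.135 and 0.0620), and that in C1MDT also without C1MDT replicate 1 (0.0798).

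Vim differed little in size. It was at 202.5 ± 11.0 CPM in C1MV and 196.7 ± 13.7 in C1HV, and at 201.8 ± 6.81 in C1MDT and 196.8 ± 7.55 in C1HDT, which is 1.18 to 1.22 times the 167.1 ± 9.59 CPM of C1T, with adjusted p-values between 0.00543 and 0.0245. The C1HV libraries overlapped with those of C1T, and the 1.18-fold calls did not hold under the loss of some single libraries. In C1HV the call was lost without C1T replicate 1 (adjusted p = 0.0576) and without C1HV replicate 1 (0.0512) or 3 (0.0525), and in C1HDT it was lost without C1T replicate 1 (0.0678) or 3 (0.0571). Snai1 was at 2.81 ± 0.409 CPM in C1MV and 5.15 ± 1.44 in C1HV, and at 3.41 ± 1.15 in C1MDT and 3.20 ± 2.09 in C1HDT, against 0.536 ± 0.786 in C1T. The C1HDT libraries overlapped with those of C1T. The fits gave adjusted p-values between 2.86e-05 and 0.00938, with log2 fold changes of 2.10 to 3.00, which were 3.66 to 4.565 without C1T replicate 2, and the call in C1MV was lost without C1T replicate 3 (0.0524).

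Fn1 was higher than in C1T after withdrawal. It was at 214.5, 213.4, 233.3 and 254.0 CPM in C1MV and at 229.9, 234.1, 223.3 and 245.9 CPM in C1HV, all above the highest C1T library (1.38-fold, adjusted p = 2.84e-07, and 1.41-fold, 6.22e-08). In C1MDT (152.6 ± 12.4 CPM) and C1HDT (158.9 ± 7.73) it did not pass the test, and the 95% intervals of the log2 fold change ran from -0.27 to 0.042 and from -0.21 to 0.098. Esrp1 was at 1.61, 3.74, 2.18 and 7.85 CPM in C1MV, 3.56-fold lower than in C1T (adjusted p = 1.09e-05). In C1HV it was at 5.68, 9.09, 5.59 and 5.21 CPM (1.92-fold lower, adjusted p = 0.0230), a call lost without C1T replicate 3 (0.0942) and without C1HV replicate 1 (0.0686), 3 (0.0751) or 4 (0.0678).
In C1MDT the fall of Esrp1 was at the threshold (adjusted p = 0.0489), and DESeq2 (0.0949), library-size scaling (0.0660) and the fit without a filter (0.0585) did not call it. Without C1T replicate 1, 2 or 3 its adjusted p was 0.0884, 0.0838 or 0.169, and without C1MDT replicate 1, 3 or 4 it was 0.0993, 0.216 or 0.146. Zeb2 was called lower in C1MDT (7.23 ± 2.65 against 12.5 ± 4.25 CPM, adjusted p = 0.0338), and this call was lost with DESeq2 (0.0586), without C1T replicate 1 (0.152) or 3 (0.165) and without C1MDT replicate 1 (0.0757), 2 (0.106) or 4 (0.134).

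Epcam was at 126.5 ± 22.9 CPM in C1T and between 113.9 ± 14.6 and 127.1 ± 9.85 CPM in the 4 groups with a history of induction. The 95% intervals of the log2 fold change against C1T all lay between -0.35 and 0.20. Zeb1 lay between 51.7 ± 5.20 and 61.5 ± 10.1 CPM in the same groups, and neither Zeb1 nor Snai2 passed the test in any of these comparisons.

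Keeping the inducers was also compared directly with withdrawing them. In C1MDT vs C1MV, Cldn7 and Esrp1 were higher and Cldn4 and Fn1 lower (4 of 10 genes, background 12.6%, with 6.64% higher and 5.95% lower). In C1HDT vs C1HV, Cldn7 was higher and Cldn4 and Fn1 lower (3 of 10, background 16%, with 9.1% higher and 6.88% lower). Cldn7 was 2.34-fold higher in C1MDT (adjusted p = 2.47e-05) and 1.77-fold higher in C1HDT (0.00917). Cldn4 was 2.08-fold lower in C1MDT (6.14e-06) and 1.53-fold lower in C1HDT (0.0220). Fn1 was 1.49-fold lower (7.80e-10) and 1.47-fold lower (4.51e-09), and none of the C1MDT and C1HDT libraries reached the lowest library of the matching withdrawn group.
Without C1HV replicate 2 only Fn1 stayed called in C1HDT vs C1HV (1 of 3 genes), since Cldn4 (adjusted p = 0.138) and Cldn7 (0.0690) were lost. Cldn7 was also lost without C1HDT replicate 2 (0.0729), and Cldn4 without C1HV replicate 4 (0.0611) or C1HDT replicate 4 (0.0826). The rise of Esrp1 in C1MDT vs C1MV (adjusted p = 0.0376) was lost with DESeq2 (0.0562) and without C1MV replicate 1 (0.181), 2 (0.0564) or 3 (0.156) or C1MDT replicate 2 (0.291). Ctnnb1 was 3.35-fold higher in C1MDT than in C1MV (adjusted p = 5.59e-12) and 4.80-fold higher in C1HDT than in C1HV (3.61e-15).

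**Figure D3:**
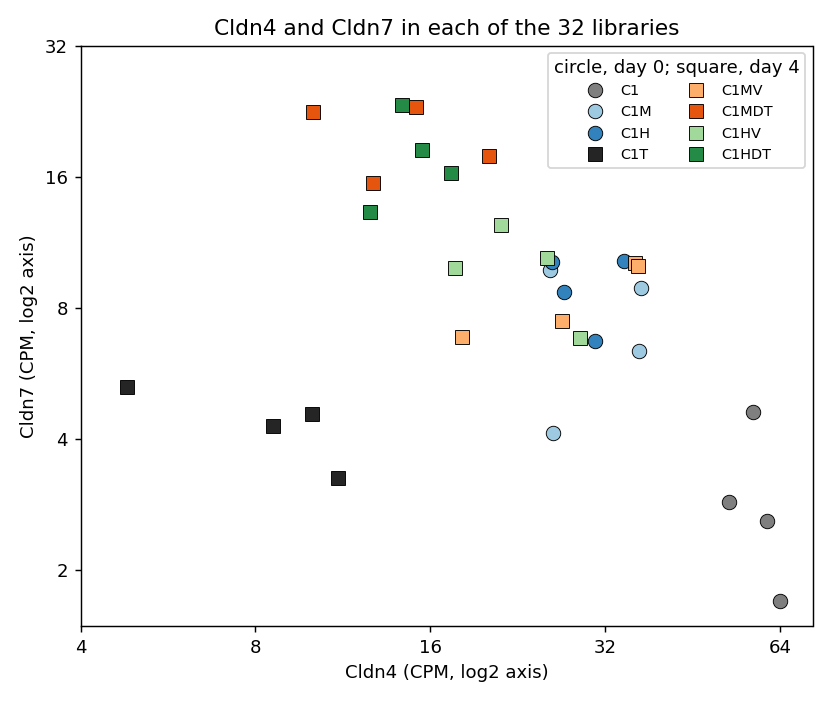
Cldn4 (x axis) against Cldn7 (y axis), both in CPM on log2 axes, in each of the 32 libraries (circles, day 0, squares, day 4). C1 libraries lie at high Cldn4 and low Cldn7, C1T libraries are low in both, and the C1MDT and C1HDT libraries reach the highest Cldn7 values, between 13.3 and 23.4 CPM.

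No difference between the sorted fractions was called in these genes at day 4. Of the 10 genes, 0 were called by edgeR or DESeq2 in C1HV vs C1MV, where 2 (Esrp1 and Snai1) had an unadjusted p under 0.05 and 0.00654% of all genes were called. In C1HDT vs C1MDT 0 were called by both tools, 1 (Snai2) had an unadjusted p under 0.05, and 0% of all genes were called. The effect of keeping the inducers was tested between the fractions with an interaction term, which was called for 0 genes by both tools and had no unadjusted p under 0.05 (background 0%). Ctnnb1 was at 29.2 ± 4.29 CPM in C1MDT and 30.8 ± 3.75 in C1HDT, a difference that did not pass the test (adjusted p = 0.992).

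Markers of other cell types moved with these results. The summed level of the 15 primitive and extraembryonic endoderm markers was 224 to 384 CPM in C1T, 1035 to 1518 in C1MV, 1236 to 1371 in C1HV, 1690 to 1873 in C1MDT and 1626 to 1915 in C1HDT. Of the 14 tested, 12 were higher and 0 lower in C1MV vs C1T (background 30.2%), and 12 were higher and 1 lower in C1MDT vs C1T (33.4%), and Afp was at 0 in C1MV. Sox17, an endoderm transcription factor, was at 20.4 ± 2.51 CPM in C1MDT and 0.240 ± 0.480 in C1T, and Lama1, a basement membrane laminin, at 207.5 ± 10.8 and 4.48 ± 1.42. The neural ectoderm markers summed to 582 to 617 CPM in C1T, 650 to 715 in C1MV, 627 to 683 in C1HV, 653 to 715 in C1MDT and 654 to 699 in C1HDT. Among them Sox1 was higher in C1MDT than in C1T (165.3 ± 9.26 against 92.3 ± 10.8 CPM) and Pax6 was lower (15.5 ± 2.70 against 24.0 ± 5.47). The pluripotency markers summed to 960 to 1133 CPM in C1T, 1316 to 1658 in C1MV, 1241 to 1520 in C1HV, 678 to 792 in C1MDT and 626 to 837 in C1HDT. Among the day 4 groups, C1MV and C1HV had the highest Cldn4, Fn1 and pluripotency markers, and C1MDT and C1HDT the highest Cldn7 and endoderm markers. C1T did not follow this order for Cldn4. Its pluripotency markers were above those of C1MDT and C1HDT, but its Cldn4 was lower (8.62 ± 2.75 against 14.5 ± 4.31 and 14.9 ± 2.00 CPM). The share of reads outside annotated genes was 6.505% to 6.79% in C1T, 5.56% to 6.83% in C1MV, 5.75% to 6.74% in C1HV, 5.04% to 5.31% in C1MDT and 4.72% to 5.33% in C1HDT, so that the groups with inducers kept did not overlap with C1T or with the matching withdrawn group. The part of these cell types and of this share in the differences of the 10 genes was not tested.

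Other genes of the same kinds were described from lists, beside the 10 genes. The lists were chosen with earlier results of these data known, so their shares are descriptions. At day 0, in C1M vs C1, 3 of 21 tight junction genes rose and 3 fell. Cgn, which encodes the plaque protein cingulin, rose from 2.65 ± 1.67 to 6.98 ± 1.05 CPM (adjusted p = 0.00218) and F11r, the junction molecule JAM-A, from 150.5 ± 11.49 to 241.3 ± 10.2 (2.96e-11). Of 26 matrix and adhesion genes 5 rose and 8 fell. Mmp2, a gelatinase, rose from 3.53 ± 0.548 to 15.0 ± 5.44 CPM (adjusted p = 9.46e-09) and Mmp14, which activates it, fell from 13.1 ± 1.63 to 5.29 ± 2.85 (0.000178). The share called was 28.6% for the tight junction list and 50% for the matrix list, against 26.3% of all tested genes, and the median log2 fold changes were 0.055 and -0.015 beside 0.055 over all genes. Of 15 mesenchymal cytoskeleton and surface genes 5 rose and 1 fell, and S100a6, a calcium-binding protein, rose from 47.7 ± 2.42 to 173.5 ± 6.27 CPM (adjusted p = 4.99e-32). Of 12 transition transcription factors and splicing genes 3 rose and 2 fell. Snai3 rose from 0.250 ± 0.289 to 4.67 ± 1.79 CPM (adjusted p = 8.14e-06), whereas Qk and Rbfox2, splicing regulators of mesenchymal cells, fell (adjusted p = 6.40e-09 and 2.41e-12).

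In C1T vs C1 the lists were again divided. Of 18 genes of the epithelial cytoskeleton and adhesion 8 fell and 2 rose, with a median log2 fold change of -0.84 beside 0.0084 over all genes. The desmosome genes Dsp and Dsg2 fell from 140.0 ± 11.4 to 13.0 ± 2.51 CPM (adjusted p = 8.06e-52) and from 144.5 ± 12.2 to 36.9 ± 6.58 (5.11e-37), while Pkp2, another desmosome gene, rose from 6.88 ± 1.29 to 19.0 ± 2.34 (5.49e-08). Of 21 tight junction genes 6 rose and 3 fell, and Cgnl1 rose from 11.6 ± 1.95 to 75.7 ± 4.76 CPM (adjusted p = 5.35e-30). Among 14 epithelial regulators and proteases 2 rose and 5 fell, with Grhl2, an epithelial transcription factor, rising from 4.36 ± 0.666 to 16.2 ± 3.45 CPM (adjusted p = 2.25e-08) and Elf3 falling from 97.1 ± 12.1 to 8.14 ± 2.75 (9.93e-45). Of 26 matrix and adhesion genes 7 rose and 11 fell, among them Vcan, the proteoglycan versican, which rose from 35.9 ± 4.09 to 95.1 ± 4.34 CPM (adjusted p = 2.65e-18), and Spp1, osteopontin, which fell from 170.1 ± 14.7 to 12.4 ± 2.82 (1.13e-39). In the TGF-β pathway, a known inducer of the transition, 2 of 13 genes rose and 5 fell, and the inhibitory Smad7 fell from 216.5 ± 12.4 to 22.9 ± 5.32 CPM (adjusted p = 3.85e-43). The shares called ran from 41.7% to 69.2% over these lists and the mesenchymal surface and transcription factor lists, beside 49.3% of all genes.

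In C1MDT vs C1T, the share of called genes was above the background in the tight junction list, both cytoskeleton lists and the epithelial regulators, and near or below it in the matrix, transcription factor and TGF-β lists. Here 12 of 15 mesenchymal cytoskeleton and surface genes were higher and none lower, with a median log2 fold change of 0.75 beside -0.0062 over all genes, and 80% called beside 33.4%. Pdgfra, a growth factor receptor of mesenchyme that also marks primitive endoderm, was at 22.0 ± 4.48 CPM against 0.760 ± 0.813 (adjusted p = 1.69e-21). Of 21 tight junction genes 10 were higher and 2 lower, with Cldn6 at 39.1 ± 4.26 against 8.48 ± 4.45 CPM (adjusted p = 4.82e-11). Of 18 epithelial cytoskeleton and adhesion genes 8 were higher and none lower, with Krt8, a keratin of simple epithelia, at 19.9 ± 1.39 against 3.22 ± 1.46 CPM (adjusted p = 5.51e-14). Of 26 matrix genes 7 were higher and 2 lower (34.6% called, median 0.033), with Sparc, a collagen-binding matrix protein, at 3249 ± 219 against 218.1 ± 19.4 CPM (adjusted p = 4.70e-91). Of 14 epithelial regulators and proteases 4 were higher and 2 lower (42.9%, median 0.030), and Prss8, an epithelial serine protease, was at 19.4 ± 3.38 against 2.98 ± 1.11 CPM (adjusted p = 1.78e-14). Of 12 transition transcription factors and splicing genes 2 were higher (Hmga2 and Tcf3) and 1 lower (25%, median -0.40), the latter being Rbfox2 at 77.1 ± 8.54 against 178.8 ± 20.8 CPM (adjusted p = 4.14e-24). Of 13 genes of the TGF-β pathway 2 were higher, Tgfb1 among them (adjusted p = 0.000824), and 1, Skil, was lower (23.1%). With a filter of 1 CPM in all libraries, 7 mesenchymal cytoskeleton and surface genes were called. The number tested and the share over all genes with that filter are not given here, so the 7 cannot be set beside the 80% or the 33.4%. After withdrawal, in C1MV vs C1T, 8 of 18 epithelial cytoskeleton and adhesion genes were higher and 1 lower (50% called), and 7 of 15 mesenchymal cytoskeleton and surface genes were higher and 1 lower (53.3%), where 30.2% of all genes were called (15.3% higher and 14.9% lower). With the stricter filter 5 of these mesenchymal genes were called, and the 30.2% does not apply to that count.

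**Figure D4:**
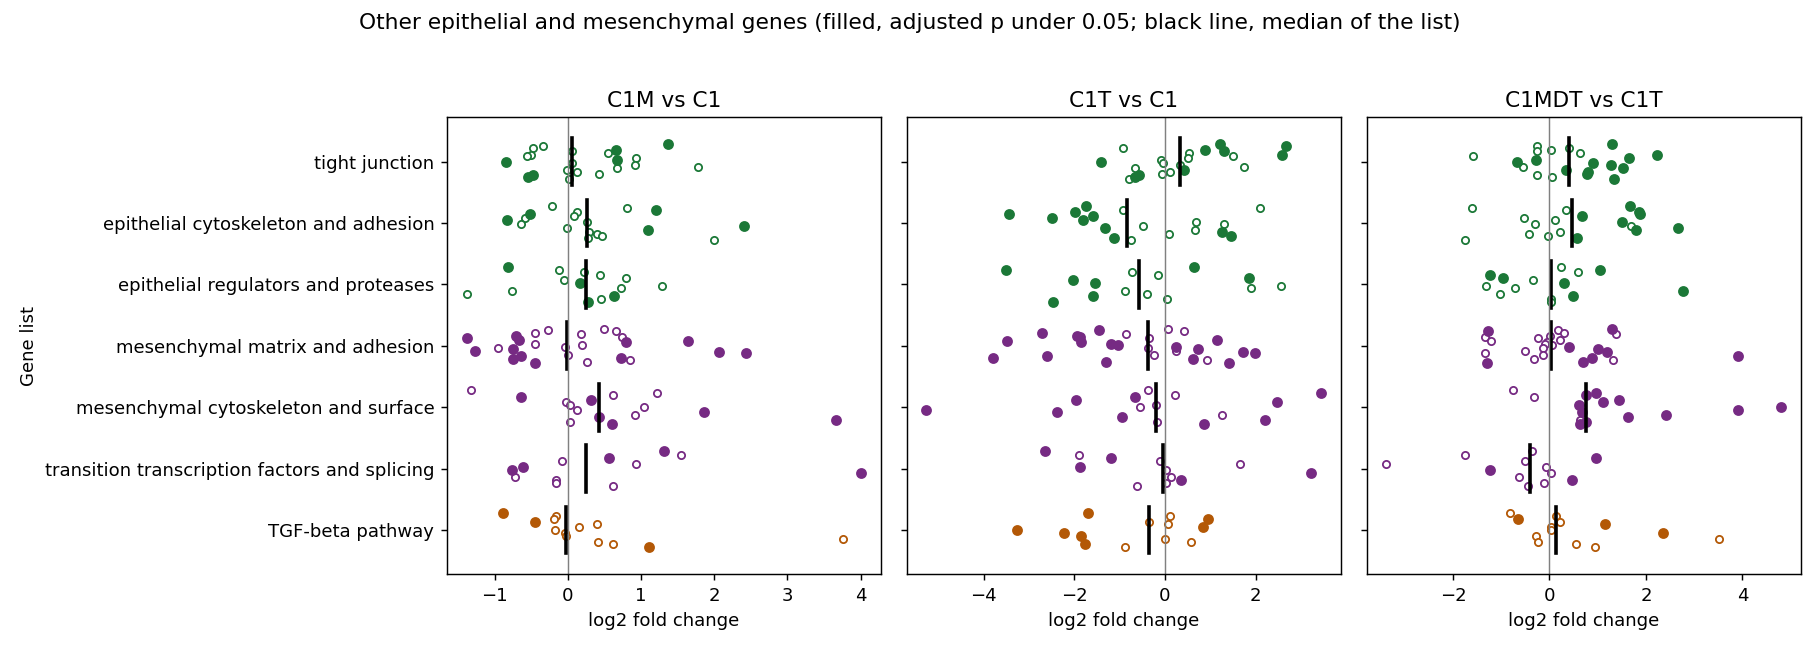
log2 fold change (x axis) of the tested genes of 7 lists (y axis) in C1M vs C1, C1T vs C1 and C1MDT vs C1T. Filled points have an adjusted p under 0.05, black lines are the medians of the lists, and the colours stand for epithelial (green), mesenchymal (purple) and TGF-β (orange) lists. Genes of both kinds lie on both sides of 0, and in C1MDT vs C1T the median of the mesenchymal cytoskeleton and surface genes was 0.75.

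The genes whose pattern over the 32 libraries was most like that of each of the 10 genes were named by Pearson's r of log2 CPM. The 8 groups set most of the likeness, so r is a description. The closest were Col18a1 (r = 0.99) and Dnmt3l (0.99) to Vim, Cited2 (0.98) and Qk (0.98) to Fn1, and Sox4 (0.95) and Uchl1 (0.95) to Epcam. For Esrp1 they were Cemip2 (0.94) and Dll1 (0.94), for Cldn4 Jdp2 (0.92) and Ahnak (0.92), and for Zeb1 Fxr1 (0.92) and Prrc2b (0.90). Cldn7 was most like Rhou (0.90) and Polg (0.89), and Ppp6r1 (0.90) was among the closest to Zeb2. Snai1 and Snai2, with few counts, reached only 0.80 (Neu1) and 0.81 (Shox2). Among the 10 genes themselves, Epcam and Fn1 ran against each other over the 32 libraries (r = -0.93), but not over the deviations of libraries from their group means (0.25), and Cldn4 and Cldn7 had an r of -0.37 (-0.061 within groups).

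Fn1 shares 292 exon bases with Apol7d on the other strand, which had 248 counts over all libraries. Zeb2 shares 653 exon bases with Zeb2os on the other strand (12 counts) and Esrp1 shares 127 with Gm26663 (1 count), and the strand setting of the counting was not given in the sources used here.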

How the data were processed

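RNA was captured at its 3′ end with QuantSeq and sequenced single-end. The authors trimmed reads with bbduk, aligned them with STAR to mm10 and counted them per gene with htseq-count. The deposited values are raw counts per gene, one file per library. Rows that name no gene were left out of library sizes, and the classes among them held 9.03% to 11.2% at day 0 and 4.72% to 6.83% at day 4 (no feature), 0.234% to 0.290% (ambiguous) and 49.4% to 56.4% (not unique) of reads. The labels give the groups and call the replicates biological, without saying that they came from separate cultures, and the study describes the 4 samples of a group as from 1 experiment, so p-values measure only the spread between these libraries. No library appeared to be deposited in duplicate.

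The counts were fitted over all 8 groups with the quasi-likelihood test of edgeR 4.0.16 (R 4.3.3), with TMM factors, a filter of at least 1 CPM in at least 4 libraries and Benjamini-Hochberg adjustment over 15280 genes, and a threshold of 0.05. The fit was run on counts simulated from the same kind of model with few genes changed. That run does not test it where a large share of genes changes, as here. Differences between responses were interaction terms. Fold changes against the single Esrp1 count of C1 are ratios with exact counting intervals, which cover counting error only. For likeness, log2 CPM was computed with a prior count of 2. Alternatives were RLE factors, library size alone, DESeq2 1.42.0, other filters, a replicate block, fits of only the groups compared and leaving out each library. The members and the gene lists were chosen with earlier results of these data known. Genes named from a list were taken from its top 3 called changes in each direction, provided that the libraries of the groups did not overlap. Upstream windows came from RefSeq tables of GRCm38.p6, the assembly behind mm10. Some items that the rules would name are not reported here.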

Additional observations from a re-analysis of the deposited data

Results flagged for a closer look

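Among 80 groups of 4 libraries checked for 1 library far from the other 3, 7 were found, where chance gives about 1 in 20. Replicate 2 held the single count of Esrp1 in C1 (0.566 CPM) and the highest Esrp1 value of C1HV (9.09 CPM, the others 5.21 to 5.68). Vim was high in C1T replicate 4 (181.5 CPM, the others 161.2 to 163.0) and Fn1 in C1T replicate 1 (172.8 CPM, the others 162.1 to 163.2). Zeb1 was low in C1HDT replicate 4 (43.9 CPM, the others 53.6 to 54.8). Zeb2 was low in C1M replicate 2 (1.77 CPM, the others 2.89 to 2.97) and high in C1MDT replicate 3 (11.2 CPM, the others 5.51 to 6.35).

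Of 50 tests of a difference between responses by an interaction term of edgeR, 26 passed, all of them against C1T vs C1, and the 10 between the fractions (C1HDT vs C1HV against C1MDT vs C1MV) gave 0. Of all tested genes, 22.5% passed for C1MV vs C1M, 24.4% for C1MDT vs C1M, 21.9% for C1HV vs C1H and 25.2% for C1HDT vs C1H. Between the fractions 0% of all tested genes passed. The values are differences of log2 fold changes, and the 4 induced responses share the C1 and C1T libraries. For C1MV vs C1M they were -1.11 for Epcam, -3.84 for Esrp1, 2.66 for Cldn4, 0.78 for Vim, 1.33 for Fn1, 2.74 for Snai1 and 0.90 for Zeb1. For C1HV vs C1H they were -1.31 for Epcam, -3.26 for Esrp1, 2.41 for Cldn4, 0.68 for Vim, 1.34 for Fn1, 3.25 for Snai1 and 0.91 for Zeb1. For C1MDT vs C1M they were -1.02 for Epcam, 1.60 for Cldn4, 0.77 for Vim, 0.75 for Fn1, 3.01 for Snai1 and 0.75 for Zeb1. For C1HDT vs C1H they were -1.21 for Epcam, 1.80 for Cldn4, 0.68 for Vim, 0.78 for Fn1, 2.48 for Snai1 and 0.66 for Zeb1. The values of Esrp1 rest on 1 count in C1, in replicate 2, without which C1 held no count. Those of Snai1 rest on 5 counts in C1T, and without C1T replicate 2, which holds 4 of them, they were 4.32 for C1MV vs C1M, 4.84 for C1HV vs C1H, 4.60 for C1MDT vs C1M and 4.055 for C1HDT vs C1H.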

How the results depend on the processing

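Of 170 log2 fold changes of the 10 genes, 105 were called, and none of these changed sign under any alternative that tested them. Of the called, 87 were kept in every setting that tested them. A further 3 were lost under an alternative other than leaving out a library, and 15 were lost only with a library left out. The filter of 1 CPM in all libraries did not test Esrp1, Snai1 or Snai2, and their calls were not counted as lost there. Of the 65 not called, 5 were called under some setting and 15 turned sign. With a library left out, the number of called genes ranged from 3 to 6 in C1MDT vs C1T, from 2 to 5 in C1HDT vs C1T and from 1 to 3 in C1HDT vs C1HV.

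The values that turned sign were all uncalled. Epcam in C1MDT vs C1T was 0.0061, and -0.0029 with RLE factors and -0.0028 with DESeq2. Zeb1 in C1MDT vs C1T was -0.0031, and 0.037 with library size alone, 0.0026 without a filter and 0.0080 with the replicate block. Vim in C1HDT vs C1HV was 0.00036, and -0.025 with RLE factors, -0.049 with library size alone, -0.025 with DESeq2, -0.014 without a filter, -0.032 with at least 1 CPM in all libraries and -0.018 when only the groups compared were fitted. With a library left out, the log2 fold change ranged from -0.24 to 0.080 for Cldn4 in C1MV vs C1M, from -0.37 to 0.40 for Snai1 in C1HDT vs C1H, from -0.14 to 0.048 for Epcam in C1MV vs C1T, from -0.044 to 0.14 for Epcam in C1MDT vs C1T and from -0.11 to 0.078 for Epcam in C1HDT vs C1T. It ranged from -0.30 to 0.39 for Snai2 in C1MV vs C1T, from -0.081 to 0.52 for Snai2 in C1HV vs C1T, from -0.091 to 0.099 for Zeb1 in C1MDT vs C1T and from -0.16 to 0.023 for Zeb1 in C1HDT vs C1T. It ranged from -0.035 to 0.037 for Vim in C1MDT vs C1MV, and in C1HDT vs C1HV from -0.052 to 0.018 for Vim, from -0.097 to 0.52 for Snai2 and from -0.56 to 0.12 for Zeb2. In the tests against C1T vs C1, Zeb2 ranged from -0.014 to 0.67 for C1HV vs C1H and from -0.095 to 0.31 for C1HDT vs C1H.

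Replicate numbers did not pair the libraries, since deviations from the group means had a mean r of -0.0016 between libraries of the same number. With the replicate block all 21 counts of called genes were equal to those without, and 0 calls were lost or gained. Of 480 recomputed group means 2 moved by at least 1 SD, namely Fn1 in C1H (581 CPM) and in C1T (159 CPM) with library size alone, which also moved the median of all genes in C1M vs C1 from 0.055 to 0.12. A filter of 1 CPM in all libraries tested 10233 genes and left out low members. Depth limits Esrp1 at day 0, Snai1 in C1T and Snai2 at day 4, which lay near the floor of 3 counts.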
